A study of Mus musculus with 11 samples.

Results

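Described here are 44 genes of glycolysis, the pentose phosphate pathway and the tricarboxylic acid (TCA) cycle in mouse T cell acute lymphoblastic leukaemia (T-ALL) with and without the histone demethylase Utx. They were chosen by name, as core enzymes, transporters and regulators of glucose carbon, and not by their values, and they are 44 of the 37224 gene rows of the expression table. All 44 were found by symbol. The pyruvate kinase gene Pkm is listed under its older name Pkm2, which here stands for the whole gene and not for the M2 splice form. The genes fall into 6 groups by role: 6 for glucose uptake and hexose phosphate, 7 for phosphofructokinase and its regulators, 10 for lower glycolysis, 8 for the fate of pyruvate and lactate, 4 for the pentose phosphate pathway and 9 for the TCA cycle.

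RNA sequencing was used to compare leukaemias arising from cKit blood progenitors of C57/BL6 background that carried a Notch1-IC retrovirus, an activated intracellular form of Notch1, and were transplanted intravenously. The knockout group is labelled Utx knockout (Utx-/Y) and holds 5 samples, 2 from bone marrow and 3 from spleen. The control group is labelled Utx wild-type (Utx+/+ or Utx+/Y) and holds 6 samples, 2 from bone marrow and 4 from spleen, and carries the same Notch1-IC retrovirus. Of the 11 samples, repeat runs make up 1 per genotype from marrow and 1 from wild-type spleen. The knockout donors were thus male while wild-type donors could be of either sex, so that genotype and donor sex cannot be told apart for X-linked genes. How Utx was deleted is not stated in the labels, and retroviral Notch1-IC is expressed in whichever progenitors were infected.

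The table holds 1 pooled count per gene and genotype, with 106445530 counts in the knockout pool against 108015222 in the wild-type pool, and does not say which samples entered a pool. No spread between animals could be computed, so no ratio below has a replicate check, and the data cannot show whether all tumours of a pool or a single one gave a gene's counts. Kdm6a, the gene for Utx, had 10.5 CPM (counts per 1000000 of the pool) in the knockout pool against 58.3 in the wild-type pool. T cell markers had a summed level of 3123 CPM in the knockout pool against 4063 CPM in the wild-type pool, and all 12 were present in both. Markers of other cells were present too, and 4 of these lists had a higher sum in the knockout pool: the erythroid markers summed to 29377 and 15351 CPM in knockout and wild-type, the granulocyte and monocyte markers to 2826 and 2180 CPM, the megakaryocyte markers to 37.7 and 16.2 CPM, and the stromal and endothelial markers to 193 and 104 CPM. The NK and cytotoxic markers summed to 235 and 246 CPM, mostly from Gzma (193 and 236 CPM). Of these markers 6 of 7 were called higher by the rule given below. The B cell markers summed to 9.28 and 12.0 CPM. Of the 7 marker lists no gene had 0 combined counts. In such bulk RNA, fewer cells of a type and less RNA per cell cannot be told apart.

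Glycolysis splits glucose into pyruvate in the cytosol. Hexokinase traps glucose in the cell, phosphofructokinase commits it to the pathway, and pyruvate kinase completes it. Pyruvate is then reduced to lactate and exported, or enters mitochondria through the pyruvate dehydrogenase complex to feed the TCA cycle, while the pentose phosphate pathway branches off to make NADPH and ribose. Most steps have several isozymes with different kinetics and tissue patterns. Dividing T cells and T-ALL cells driven by Notch1 or Myc are known for high glucose use, for which Hk2, Ldha and the transporter Slc2a1 are often taken as indicators.

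Hypoxia-inducible factors and Myc bind short core motifs near many of these genes, and promoters of some genes called higher or lower below are shown for that reason. Those of Pdk2 and Eno3 are not printed, although the log2 ratio of Eno3 was -1.24 beside -1.22 for Pgk1. Sequences run from 250 bases before to 50 bases after the annotated start, from RefSeq on GRCm38.p6, and capitals mark the hypoxia core ACGTG or the related core GCGTG on either strand (read as CACGT or CACGC on the other). The genes are Hk2 (chr6:82774405-82774704, minus strand) and Slc16a3 (chr11:120948817-120949116, plus strand), both higher in the knockout pool, and Ldhb (chr6:142507908-142508207, minus strand) and Pgk1 (chrX:106186850-106187149, plus strand), both lower.
Hk2: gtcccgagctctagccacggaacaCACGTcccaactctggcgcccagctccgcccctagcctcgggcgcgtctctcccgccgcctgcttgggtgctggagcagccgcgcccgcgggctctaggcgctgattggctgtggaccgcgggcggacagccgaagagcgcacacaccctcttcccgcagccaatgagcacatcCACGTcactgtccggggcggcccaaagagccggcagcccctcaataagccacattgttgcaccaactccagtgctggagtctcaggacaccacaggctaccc
Slc16a3: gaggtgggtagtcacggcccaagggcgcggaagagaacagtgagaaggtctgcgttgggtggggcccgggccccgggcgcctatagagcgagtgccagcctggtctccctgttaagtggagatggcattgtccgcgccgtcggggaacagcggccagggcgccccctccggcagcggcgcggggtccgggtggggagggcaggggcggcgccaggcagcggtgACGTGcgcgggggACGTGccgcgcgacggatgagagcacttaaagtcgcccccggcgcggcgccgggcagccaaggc
Ldhb: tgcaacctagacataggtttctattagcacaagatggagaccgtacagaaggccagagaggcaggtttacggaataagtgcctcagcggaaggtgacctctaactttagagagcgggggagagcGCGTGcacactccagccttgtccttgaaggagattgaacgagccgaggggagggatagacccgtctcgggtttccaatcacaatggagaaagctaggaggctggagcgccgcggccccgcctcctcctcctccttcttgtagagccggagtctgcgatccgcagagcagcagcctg
Pgk1: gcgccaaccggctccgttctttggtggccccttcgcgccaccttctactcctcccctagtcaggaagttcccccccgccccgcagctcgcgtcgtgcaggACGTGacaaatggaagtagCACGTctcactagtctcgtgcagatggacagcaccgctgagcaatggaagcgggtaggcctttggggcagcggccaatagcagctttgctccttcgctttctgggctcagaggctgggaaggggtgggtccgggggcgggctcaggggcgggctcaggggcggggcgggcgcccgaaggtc
The Hk2, Slc16a3 and Pgk1 windows hold 2 copies of ACGTG each, and the Ldhb window holds none and 1 copy of GCGTG. Of the other called genes, Pdk2, which was higher, has a single stretch CACGTG in 1 of its 2 windows. That stretch reads as ACGTG on both strands and so counts as 2 copies at 1 place. Eno3, which was lower, has no ACGTG and 1 copy of GCGTG. The hypoxia core thus stood at each gene called higher and, of those called lower, only at Pgk1. Called or not, 21 of the 42 genes with a promoter found had it in at least 1 window. A link between the core and the calls was not tested. The call of Pgk1 is uncertain because of shared sequence, as described below. Promoters were found for 42 of the 44 genes, 68 windows in all, and not for Slc2a3 and Idh3a. ACGTG was in 30 of these 68 windows (44.1%) against 19.6% of all 32851 windows of the same length. GCGTG was in 40 of 68 (58.8%) against 32.4%. The E-box CACGTG, which contains ACGTG on both strands, was in 9 of 68 (13.2%) against 7.15%. The median GC content was 59.7% in the 68 windows and 52.7% in all windows, and its part in these shares was not tested. A match of letters is a description and not a binding site, and no binding data were used here.

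Most of the 44 genes had similar levels in both pools. A gene is called higher or lower below when it had 100 or more counts over both pools, the pools differed at least 2-fold after scaling by depth, and the exact 95% Clopper-Pearson interval of the log2 ratio, which covers counting error only, did not include 0. Ratios are log2, knockout over wild-type, after adding 0.5 counts to each pool. Of the 43 genes with at least 100 counts, 3 were higher (Hk2, Slc16a3 and Pdk2), against a background of 11.2% of 13833 genes called higher, and 3 were lower (Ldhb, Eno3 and Pgk1), against 5.36% called lower. Each count of 3 is 6.98% of the 43 genes, below the background share for higher calls and near it for lower ones. The remaining 37 fell in neither class. At a 1.5-fold minimum 7 were higher and 5 lower, where 18.9% and 14.7% of all genes passed. The median log2 ratio was 0.08, beside -0.07 over all genes with at least 100 counts. With 3 of 4 other scalings the median moved to between 0.15 and 0.17 while that of all genes moved to between -0.00 and 0.03, and the 6 calls were the same genes under each of the 4 scalings tried. The authors' deposited table gave a q-value under 0.05 for 34 of the 43 genes (79.1%), beside 82.7% of all genes; that test, too, covers counting error only. Log2 ratios lay within 0.5 of 0 for 30 of 43 genes (69.8%), beside 60.6% of all genes. Among genes with at least 1000 counts the shares were 71.4% (25 of 35) and 70.0%.

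**Figure D1:**
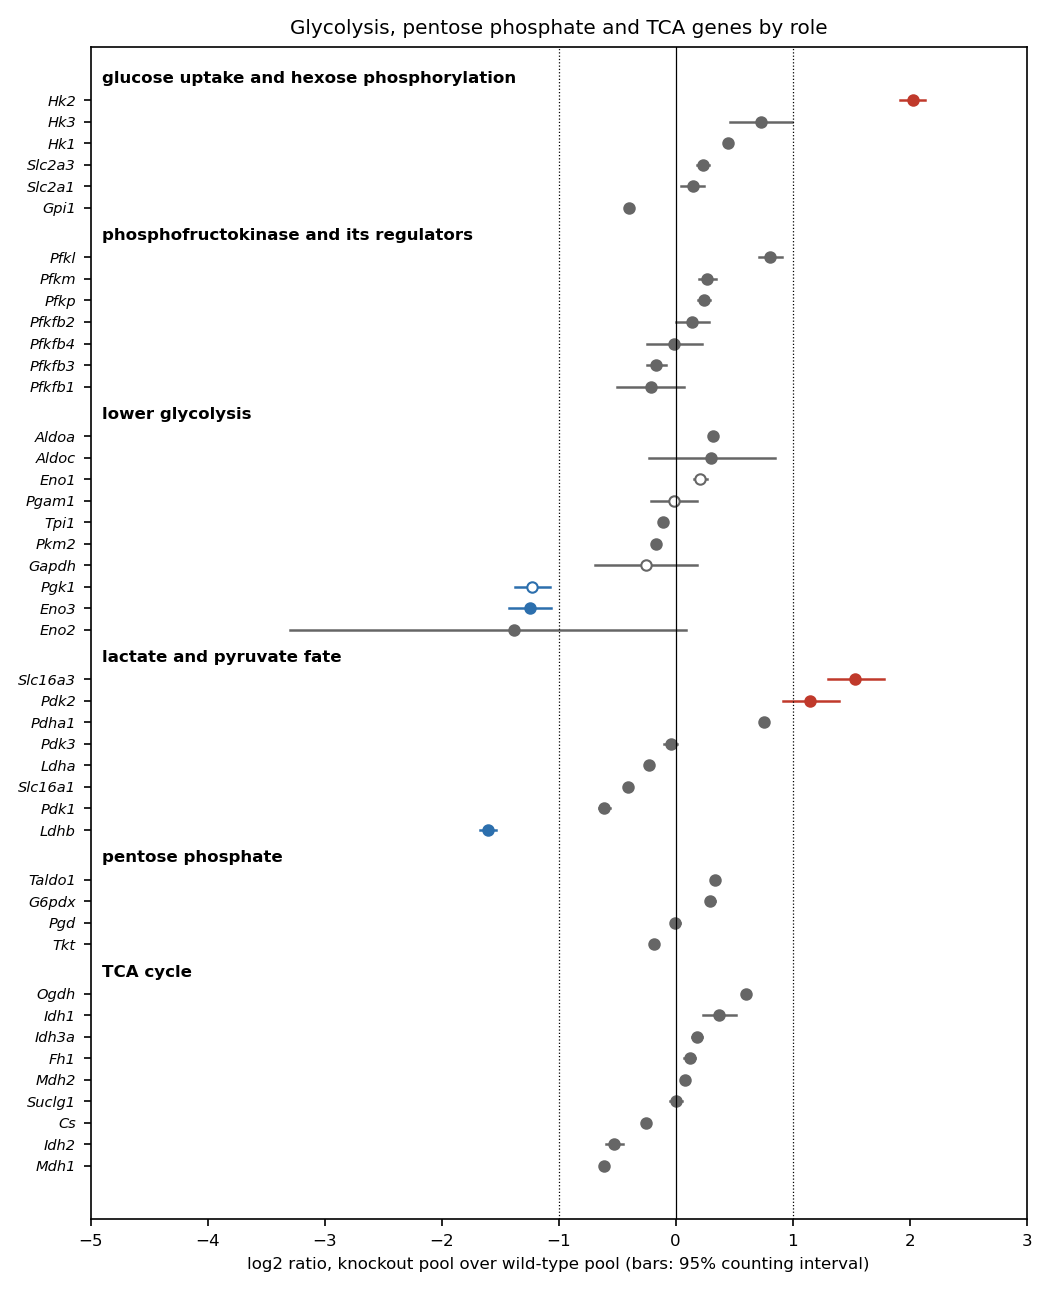
Log2 ratio of knockout over wild-type counts (x axis) for each of the 44 genes (rows, grouped by role); bars are exact 95% counting intervals, dotted lines mark a 2-fold difference, red and blue mark genes called higher and lower, and open circles mark genes with under 60% of their sequence windows found in no other gene. Hk2, Slc16a3 and Pdk2 lie to the right of the 2-fold line and Ldhb, Eno3 and Pgk1 to the left, and Eno2, with 5 and 14 counts, has the widest bar.

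Levels between genes were compared as CPM per kb of exons of coding transcripts. Pkm2 was the most abundant of the 44 genes in both pools, at 310 CPM per kb in the knockout pool against 349 in the wild-type pool. Ldha, which makes lactate from pyruvate, followed with 205 and 240, and Mdh2, the mitochondrial malate dehydrogenase, with 186 and 176. The first 3 places were thus the same in both pools. Ldhb moved by the most places, from 15th in the wild-type pool to 25th in the knockout pool, and Hk2 stood 36th and 28th. Pdha1, which was not called, stood 11th in the wild-type pool (79.7 CPM per kb) and 5th in the knockout pool (134.5), and Eno3 stood 29th and 35th. The called genes Pdk2 (38th and 36th) and Slc16a3 (42nd and 38th) moved by fewer places than the uncalled Ogdh (22nd and 17th). Summed over the 44 genes, the level was 5588 CPM in the knockout pool against 5783 CPM in the wild-type pool.

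**Figure D2:**
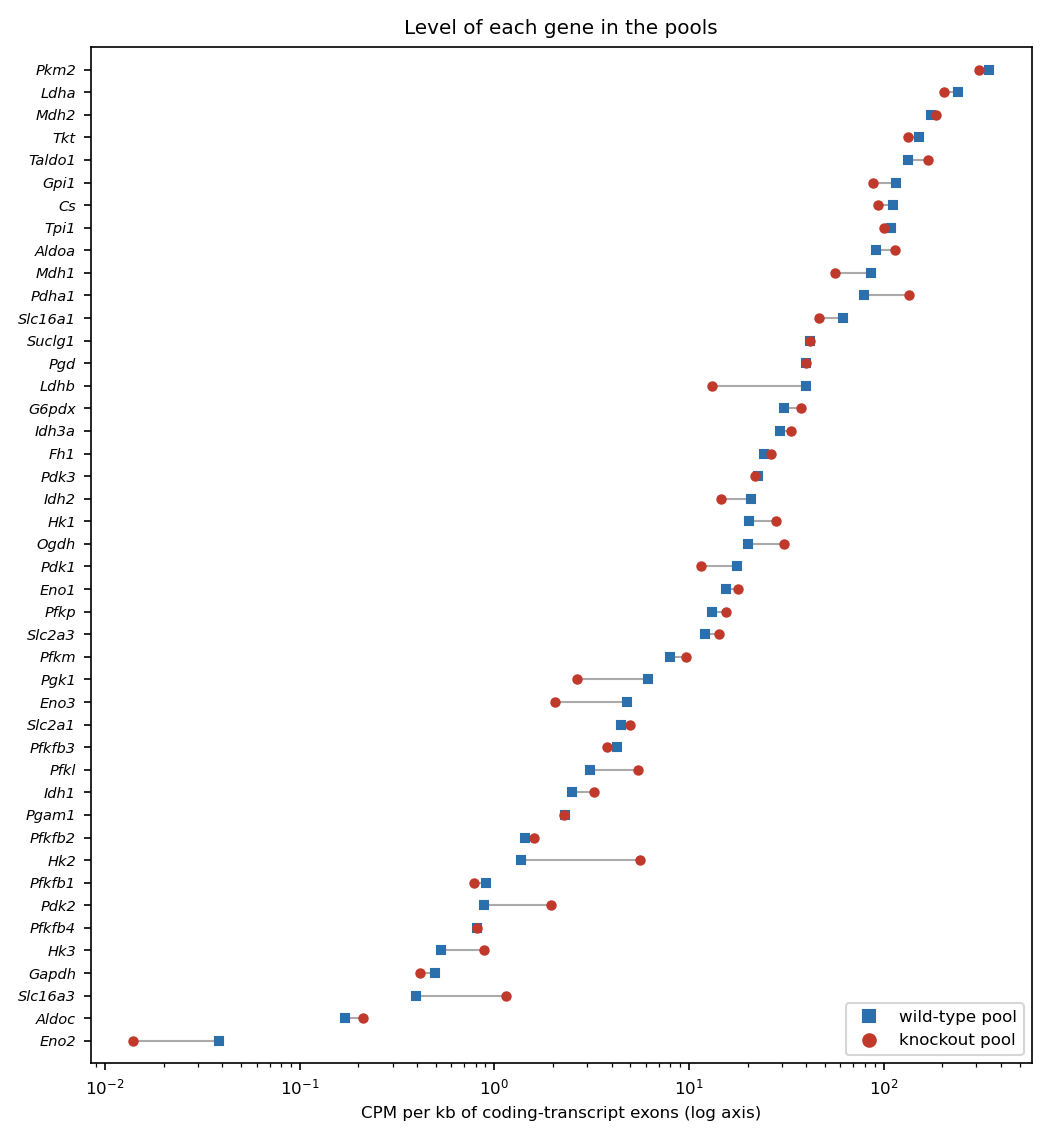
Level of each gene in CPM per kb (x axis, log scale), ordered by the wild-type pool; squares are the wild-type pool and circles the knockout pool, 1 value each. Pkm2 and Ldha stand at the top in both pools, and long lines join the unequal levels of Hk2, Slc16a3, Ldhb, Eno3, Pgk1 and, at the bottom, Eno2, which has 5 and 14 counts.

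Among the genes of glucose uptake and phosphorylation, Hk2, an inducible hexokinase that binds the outer mitochondrial membrane and is high in many tumours, had 3563 counts (33.5 CPM) in the knockout pool against 887 counts (8.21 CPM) in the wild-type pool. Its log2 ratio was 2.03 (95% counting interval 1.92 to 2.13), the highest of the 44 genes. Hk2 (ENSMUSG00000000628) lies on chromosome 6 at 82725025 to 82774454, minus strand, in GRCm38 coordinates of GENCODE M21, and all of its 50-base windows are found in no other annotated gene. Hk1, the housekeeping hexokinase, had 18539 and 13794 counts (174 and 128 CPM), a log2 ratio of 0.45 (0.42 to 0.48). Hk3, a hexokinase best known from myeloid cells, had 315 and 193 counts, a ratio of 0.73 (0.46 to 0.99). All 3 hexokinases were therefore above 0 but only Hk2 passed the 2-fold limit.

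Because depth and gene length cancel within a pair of isozymes, their balance was also given as a log2 odds ratio with an exact conditional interval for counting error. The balance of Hk2 over Hk1 differed between the pools by 1.58 (1.47 to 1.69). Per length, Hk2 was 6.16% of hexokinase transcript in the wild-type pool and 16.3% in the knockout pool, while Hk1 was 91.5% and 81.1%. Hk1 thus remained the main hexokinase transcript in both. The summed hexokinase level was 211 CPM in the knockout pool against 138 CPM in the wild-type pool, for a log2 ratio of 0.61 (0.58 to 0.64). Granulocyte and monocyte markers, of which 11 of 20 were called higher and none lower (median 1.26), stood in the same direction as Hk2 and Hk3, as did the NK and cytotoxic markers (6 of 7 higher, median 2.14), the stromal and endothelial markers (5 of 8, 1.35), the megakaryocyte markers (4 of 6, 1.06) and the erythroid markers (4 of 13, 0.67). The summed NK and cytotoxic level was nonetheless 235 CPM in the knockout pool against 246 CPM in the wild-type pool. Most of that sum was Gzma (193 and 236 CPM), the only 1 of the 7 with a ratio below 0. The T cell and B cell markers had medians below 0, at -0.31 and -0.20. The part of any of these cell types in these hexokinase levels was not tested.

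The glucose transporters differed little. Slc2a1, the basal transporter GLUT1, had 17.4 CPM in the knockout pool against 15.7 CPM in the wild-type pool (0.15, 0.05 to 0.24), and Slc2a3, the high-affinity GLUT3, had 62.5 and 53.1 CPM (0.24, 0.19 to 0.29). Per length, Slc2a3 was the larger share of the pair in both pools, 74.3% and 73.1%. The interval of their balance, -0.02 to 0.20, included 0. Gpi1, the isomerase of glucose 6-phosphate, had 255 and 336 CPM, a ratio of -0.40 (-0.42 to -0.37), the only one of the group below 0.

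None of the 7 genes of phosphofructokinase and its regulators was called. Pfkl, the liver type subunit, had 2211 and 1281 counts in knockout and wild-type (20.8 and 11.9 CPM), a log2 ratio of 0.81 (0.71 to 0.91). The muscle type Pfkm was at 0.27 (3427 and 2880 counts) and the platelet type Pfkp, the most abundant per length, at 0.24 (7387 and 6337 counts). All 3 subunits were above 0, with the summed level at 122 CPM in the knockout pool against 97.2 CPM in the wild-type pool. The balance of Pfkm over Pfkl was -0.54 (-0.66 to -0.41) and that of Pfkp over Pfkl -0.57 (-0.68 to -0.45), so that the share of Pfkl was 17.8% in the knockout pool against 12.9% in the wild-type pool. Pfkp shares 748 exon bases (16.7%) with Pitrm1 on the opposite strand, which had a log2 ratio of 0.43. The libraries mark strand, but no source used here says whether the counting kept it.

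The 4 genes for the enzymes that make and break fructose 2,6-bisphosphate, the activator of phosphofructokinase, were low and close to 0 in ratio. Pfkfb3, whose kinase activity predominates, had 2237 and 2547 counts (-0.17), and Pfkfb2 had 852 and 783 (0.14). Pfkfb4 had 301 and 308 counts (-0.01) and Pfkfb1 had 188 and 221 (-0.21), both with intervals that included 0. The sign of Pfkfb4 turned with the scaling, and its largest value was 0.08. The balance of Pfkfb2 over Pfkfb3 was 0.31 (0.14 to 0.47), and that of Pfkfb4 over Pfkfb3 had an interval of -0.09 to 0.40.

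In lower glycolysis, Aldoa, the main aldolase, had 263 CPM in the knockout pool against 210 CPM in the wild-type pool (0.32, 0.30 to 0.35). Tpi1, which interconverts the triose phosphates, had 178 and 192 CPM (-0.11), and Pkm2 had 1188 and 1335 CPM (-0.17, -0.18 to -0.16). These abundant genes were thus within 0.4 log2 units of 0 in either direction. Aldoc, the brain aldolase, had only 67 and 55 counts, and its balance to Aldoa could not be told from even (-0.55 to 0.53).

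Eno3, the muscle enolase, had 367 counts (3.45 CPM) in the knockout pool against 881 counts (8.16 CPM) in the wild-type pool, for a log2 ratio of -1.24 (-1.42 to -1.06). It lies on chromosome 11 at 70657202 to 70662513, plus strand (GRCm38), and its windows are all found in no other gene. Eno1, the ubiquitous enolase, had 5499 and 4825 counts, a ratio of 0.21 (0.15 to 0.27), the opposite direction to Eno3. The balance of Eno3 over Eno1 was -1.45 (-1.64 to -1.27), and the share of Eno3 per length was 23.8% in the wild-type pool and 10.2% in the knockout pool. With each gene set on the length of its windows found in no other gene, which for Eno1 is much shorter, the shares of Eno3 were 13.0% and 5.18%. Summed enolase was nearly equal, 55.2 CPM and 53.0 CPM. Eno2, the neuronal enolase, had 5 and 14 counts, too few for a call.

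For 4 genes of lower glycolysis, under 60% of the 50-base windows were found in no other annotated gene, and their counts are uncertain for that reason. A read of 50 bases from a shared window cannot be placed on a single gene. Gapdh, among the most abundant transcripts of most cells, had only 82 counts in the knockout pool against 99 in the wild-type pool, 0.42 and 0.50 CPM per kb, which placed it 42nd and 41st of the 44 genes. Of its 50-base windows in coding transcripts, 41.6% matched no other annotated gene, and of the 950 windows wholly inside its coding sequence 0 did so, the median window being shared with 42 other genes. In all, 222 other genes shared a window, of which 213 are pseudogenes. The 88 of these pseudogenes with a row in the table held 1628 and 2563 counts, more than Gapdh itself. Set on the length of the windows found in no other gene, Gapdh was at 0.95 and 1.13 CPM per kb in knockout and wild-type, still far below Pkm2 (393 and 442), so this correction of length does not bring Gapdh to the level of the abundant glycolytic genes, and the cause of its low count was not tested. As an example of such sequence, the Gapdh coding window found in the most other genes, 84, and the first coding window of Pgk1, found in 1 other gene, are shown without capitals, since each stands unchanged in those other genes (GENCODE M21 transcripts, GRCm38; chr6:125162898-125162947, minus strand, and chrX:106187251-106187300, plus strand).
Gapdh: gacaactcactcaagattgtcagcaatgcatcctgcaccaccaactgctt
Pgk1: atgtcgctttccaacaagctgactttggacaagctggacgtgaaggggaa
Pgk1, which makes ATP from 1,3-bisphosphoglycerate, had 514 and 1219 counts in knockout and wild-type (4.83 and 11.3 CPM), a log2 ratio of -1.22 (-1.38 to -1.07). Only 32.0% of its windows matched no other gene, and 0 of its 1202 coding windows did. Its call as lower is uncertain. Pgam1 (58.5% of windows in no other gene) had 429 and 440 counts, and Eno1 was at 50.5%, with 1395 of its windows shared with its near-identical copy Eno1b, which had 1426 and 1453 counts of its own. Without these 4 genes 3 were higher and 2 lower, and the median log2 ratio was 0.12. At the other end, 31 of the 44 genes had at least 90% of windows in no other gene, and 20 had all of them.

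**Figure D3:**
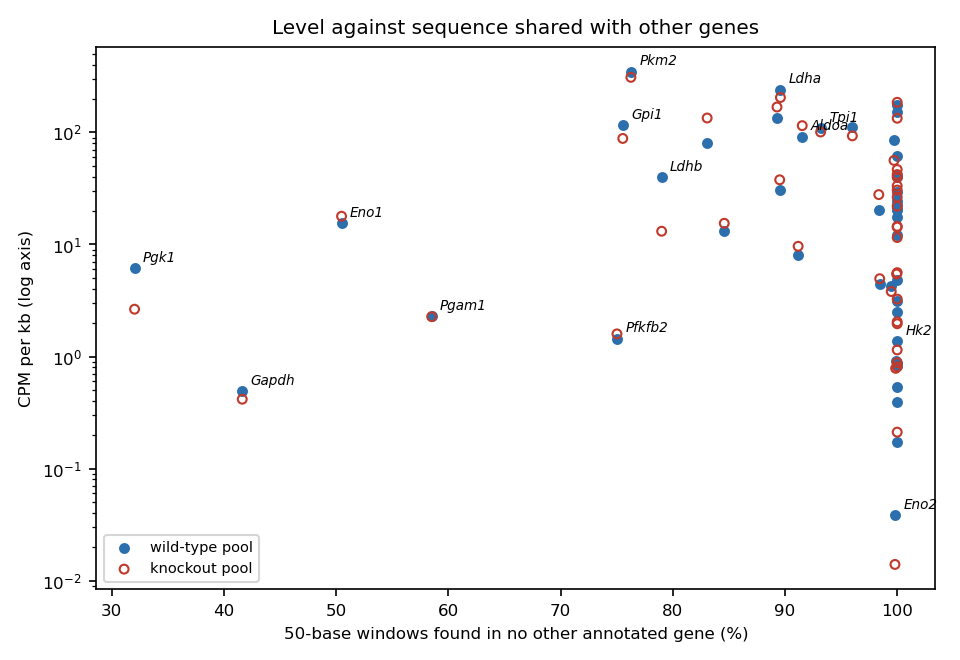
Level of each gene in CPM per kb (y axis, log scale) against the share of its 50-base windows found in no other annotated gene (x axis); filled points are the wild-type pool and open points the knockout pool. Gapdh, Pgk1, Eno1 and Pgam1 lie left of 60%, at 0.42 to 17.9 CPM per kb, while Pkm2 and Ldha stand at 205 CPM per kb or more in both pools.

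Among the genes for the fate of lactate and pyruvate, Ldhb, the lactate dehydrogenase subunit best known for tissues that oxidise lactate, had 2194 counts (20.6 CPM) in the knockout pool against 6757 counts (62.6 CPM) in the wild-type pool. Its log2 ratio was -1.60 (-1.67 to -1.53), the lowest of the genes with at least 100 counts. Ldhb (ENSMUSG00000030246) lies on chromosome 6 at 142490249 to 142507957, minus strand (GRCm38), and 79.0% of its windows are in no other gene. Ldha had 57239 and 68112 counts (538 and 631 CPM), a much smaller ratio of -0.23 (-0.25 to -0.21). The balance of Ldhb over Ldha was -1.37 (-1.44 to -1.30), and the share of Ldhb per length was 14.2% in the wild-type pool and 6.02% in the knockout pool. Summed lactate dehydrogenase was 558 CPM in the knockout pool against 693 CPM in the wild-type pool.

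Slc16a3, the lactate exporter MCT4, had 570 counts (5.35 CPM) in the knockout pool against 199 counts (1.84 CPM) in the wild-type pool, for a log2 ratio of 1.54 (1.30 to 1.78). It lies on chromosome 11 at 120948480 to 120960868, plus strand. Slc16a1, the transporter MCT1, which carries lactate in either direction, had 21991 and 29603 counts (207 and 274 CPM), a ratio of -0.41 (-0.43 to -0.38). The transporters thus stood in opposite directions, with a balance of 1.95 (1.71 to 2.19), the largest of the 17 isozyme pairs compared. Slc16a3 was nonetheless 0.633% of the pair per length in the wild-type pool and 2.40% in the knockout pool, so that the summed level followed Slc16a1, at 212 and 276 CPM. The 5 marker lists with medians above 0 named beside Hk2 stood in the same direction as Slc16a3. Their part in Slc16a3 and in Pdk2, described next, was not tested.

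The kinases that inactivate pyruvate dehydrogenase also stood in opposite directions. Pdk2 had 469 counts (4.41 CPM) in the knockout pool against 214 counts (1.98 CPM) in the wild-type pool, for a log2 ratio of 1.15 (0.92 to 1.39); it lies on chromosome 11 at 95026258 to 95041354, minus strand. Pdk1, a known hypoxia target, had 6370 and 9865 counts, a ratio of -0.61 (-0.66 to -0.56), and Pdk3 had 4944 and 5161 counts, with an interval that included 0 (-0.10 to 0.02). The balance was 1.76 (1.52 to 2.01) for Pdk2 over Pdk1 and 0.57 (0.50 to 0.64) for Pdk3 over Pdk1. Per length, Pdk3 was the main kinase transcript of the 3 in both pools, 55.0% in wild-type and 61.9% in knockout, while Pdk1 was 42.9% and 32.5% and Pdk2 2.15% and 5.53%. Summed over the 3 kinases, the level was 111 CPM in the knockout pool against 141 CPM in the wild-type pool.

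Pdha1, the catalytic subunit of pyruvate dehydrogenase that these kinases phosphorylate, had 40780 counts (383 CPM) in the knockout pool against 24517 counts (227 CPM) in the wild-type pool. Its log2 ratio of 0.76 (0.73 to 0.78) was under the 2-fold limit but was the third highest among the 35 genes with at least 1000 counts. Of its exon bases 603 (21.2%) overlap Map3k15 on the opposite strand, which had 11029 and 7188 counts, a ratio of 0.64 (0.60 to 0.68), and in that stretch the 2 genes would share reads if counting ignored strand. Pdha1 is X-linked, as are G6pdx, Pdk3, Pfkfb1 and Pgk1. The median ratio of these 5 was -0.04, beside -0.03 for 449 X-linked genes with at least 100 counts.

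**Figure D4:**
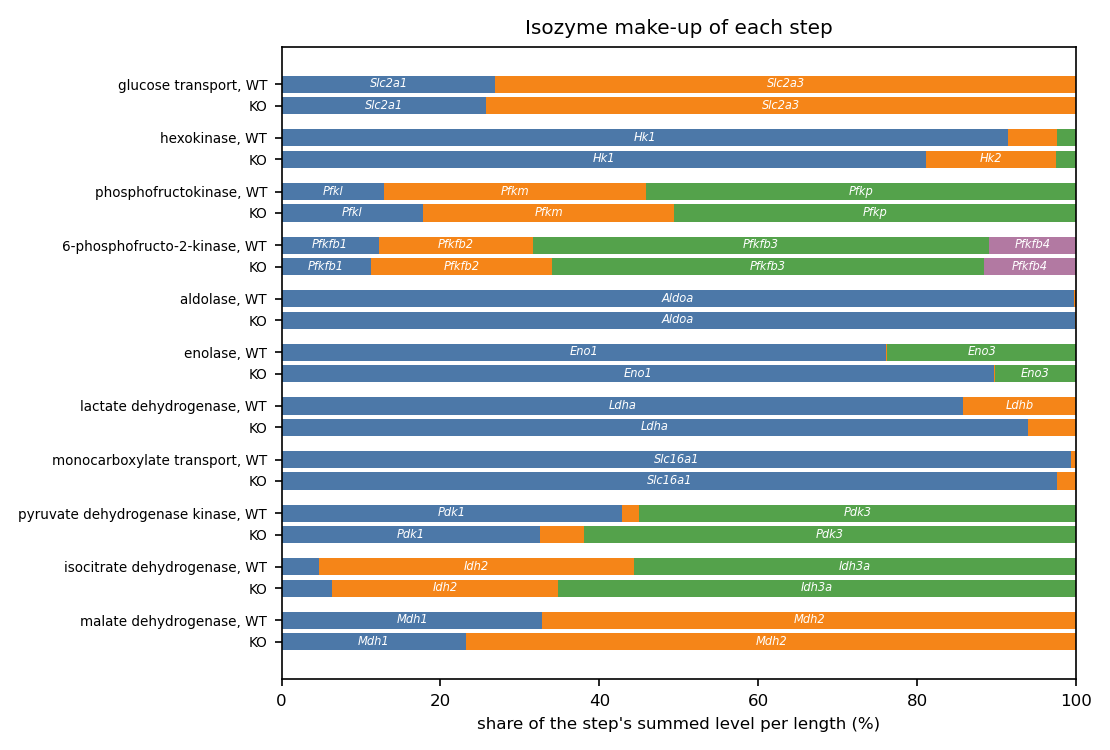
Share of each isozyme (x axis, percent) in the summed level per length of 11 steps, with the wild-type pool (WT) above the knockout pool (KO) for each step; colours separate the isozymes within a step, and shares above 9% carry the gene name. Hk2 takes a larger share of hexokinase in the knockout pool (16.3% against 6.16%), and Ldhb, Eno3, Idh2 and Mdh1 take smaller shares of their steps.

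None of the 4 genes of the pentose phosphate pathway was called, and all 4 lay within 0.5 log2 units of 0. G6pdx, the first and rate-limiting enzyme, had 100.3 CPM in the knockout pool against 81.7 CPM in the wild-type pool (0.30, 0.26 to 0.34). Pgd, the next NADPH-forming step, had 88.5 and 88.7 CPM (-0.00, -0.04 to 0.04), and its sign turned with the scaling. In the non-oxidative arm, Taldo1 had 230 and 182 CPM (0.33, 0.31 to 0.36) and Tkt 431 and 489 CPM (-0.18, -0.20 to -0.16), so that transaldolase and transketolase stood in opposite directions. The summed level of the 4 was 850 and 842 CPM.

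None of the 9 genes of the TCA cycle was called. Ogdh, a subunit of the 2-oxoglutarate dehydrogenase complex, was the highest in ratio, with 152 CPM in the knockout pool against 100.5 CPM in the wild-type pool (0.60, 0.57 to 0.64). Mdh1, the cytosolic malate dehydrogenase of the malate-aspartate shuttle, was the lowest, with 122 and 187 CPM (-0.61, -0.64 to -0.58). Mdh2 had 277 and 262 CPM (0.08), and the balance of Mdh2 over Mdh1 was 0.69 (0.65 to 0.73).

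Isocitrate dehydrogenase was split too, but by compartment its NADP-dependent forms stood the other way round from malate dehydrogenase. Idh2, the mitochondrial NADP-dependent form, had 2697 and 3934 counts (-0.52, -0.59 to -0.45), and Idh1, its cytosolic counterpart, had 960 and 752 (0.37, 0.23 to 0.51). The balance of Idh2 over Idh1 was -0.90 (-1.05 to -0.74). Idh3a, a subunit of the NAD-dependent enzyme of the cycle, had 9152 and 8180 counts (0.18), and its balance over Idh2 was 0.71 (0.62 to 0.79). Summed isocitrate dehydrogenase was 120.3 and 119.1 CPM in the pools. Cs, which opens the cycle, had 273 and 325 CPM (-0.25), and Suclg1 and Fh1 were at 0.00 and 0.12.

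Over the 17 isozyme pairs, the interval included 0 for Slc2a3 over Slc2a1, Pfkfb4 over Pfkfb3 and Aldoc over Aldoa. The remaining 14 pairs differed beyond counting error. The bound was nearest to 0 for Hk3 over Hk1 (0.28, 0.02 to 0.55) and Eno2 over Eno1 (-1.67, -3.50 to -0.12). Pairs with Eno1 rest on its uncertain counts. At this depth most genes differ beyond counting error, 82.7% of all 13833 by the authors' q-value. No share over other gene pairs was computed, so the count of 14 is not read as particular to isozymes. Summed by step, hexokinase had the highest log2 ratio (0.61), followed by phosphofructokinase (0.33), aldolase (0.32) and glucose transport (0.22). Enolase (0.06), isocitrate dehydrogenase (0.01) and the Pfkfb enzymes (-0.09) were near 0. Malate dehydrogenase (-0.17), lactate dehydrogenase (-0.31), the pyruvate dehydrogenase kinases (-0.35) and lactate transport (-0.38) were below 0. The hexokinase, phosphofructokinase and aldolase steps thus lay above 0 and the lactate steps below 0 under each of the 4 scalings. The Pfkfb step turned sign under 1 of them, and per length enolase and isocitrate dehydrogenase were at -0.03 and -0.05.

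Other genes of these pathways were taken from 9 further lists. Of 23 glucose transporters, kinases and glycolytic relatives with at least 100 counts, 3 were called higher (Galm at 2.06, Pklr at 1.40 and Pgam2 at 1.11) and 1 lower (Slc16a4 at -2.49). These are 13.0% and 4.35% of the 23, near the shares of all genes (11.2% and 5.36%), and the calls in the other lists are read against the same shares. Pklr, the pyruvate kinase of liver and red cells, had 44.1 CPM in the knockout pool against 16.6 CPM in the wild-type pool, far below Pkm2. The erythroid markers, of which 4 of 13 were called higher and none lower, moved in the same direction as Pklr, and their part in it was not tested; Pklr also overlaps Hcn3 on the opposite strand (1270 and 560 counts). Of the germ cell and liver isozymes only Pklr and Gapdhs reached 100 counts, Gapdhs with 116 and 465 counts (-1.98), and 4 of 9 had no count.

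Of 11 genes of pyruvate entry, Pcx, which turns pyruvate into oxaloacetate, had 3280 and 851 counts (1.97, 1.86 to 2.08), and Pdk4 had 124 and 32 (1.96, 1.40 to 2.58). Pdp1, the phosphatase that reverses the pyruvate dehydrogenase kinases, had 755 and 1812 counts (-1.24, -1.37 to -1.12). The kinases Pdk2 and Pdk4 were thus higher while Pdp1 and, without passing the limit, Pdk1 had lower values. Of 14 further TCA cycle genes only Me3, a mitochondrial malic enzyme, was called (5907 and 1654 counts, 1.86), and Sucla2 had the lowest ratio (-0.75). Of 14 genes of glutamine and aspartate entry none was called, with a range from Slc25a13 (-0.83) to Slc25a11 (0.65). Of 10 further pentose phosphate genes H6pd (-1.13) and Tktl1 (-2.63, 18 and 116 counts) were lower, and the highest ratio was that of Rbks (0.32).

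Of 24 hypoxia factors and targets, 3 (12.5%) were called higher and 2 (8.33%) lower, with a median of -0.16; the shares of all genes are 11.2% and 5.36%, near these. Epas1, which encodes the factor HIF-2alpha, had 7134 and 984 counts (2.88, 2.78 to 2.98), and Bnip3 (1.39) and Vegfa (1.01) were also higher. Ndrg1 (-1.42, 3561 and 9656 counts) and Hif3a (-1.27) were lower, though Ndrg1 overlaps the antisense gene Gm17035, which had a ratio of -1.38. The list shares Pfkfb3 (-0.17) and Pdk1 (-0.61) with the 44 genes. Of 17 regulators of sugar metabolism, Prkaa2, a catalytic subunit of AMP-activated kinase, was higher (1283 and 54 counts, 4.58), and Txnip, which restrains glucose uptake, had the lowest value (-0.89, 12455 and 23373 counts). Of 9 glycogen genes Gys2 (2.22, 135 and 29 counts) and Pygl (1.09) were higher, and Gbe1 was lowest at -0.84.

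**Figure D5:**
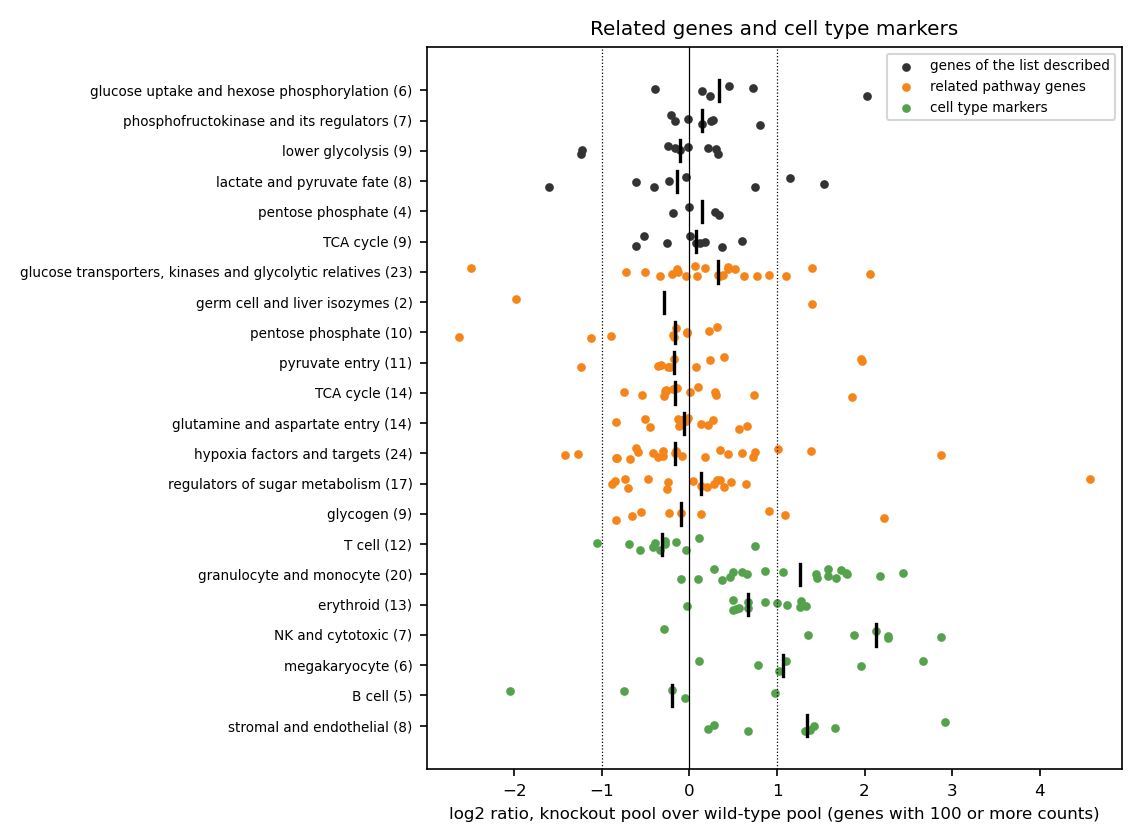
Log2 ratio of knockout over wild-type counts (x axis) of each gene with at least 100 counts, by list (rows, number of genes in brackets); vertical bars are medians, dotted lines mark a 2-fold difference, black points are the genes described, orange points related pathway genes and green points cell type markers. The 6 groups of described genes have medians from -0.14 to 0.34, while the medians are 2.14 for the NK and cytotoxic, 1.35 for the stromal and endothelial, 1.26 for the granulocyte and monocyte, 1.06 for the megakaryocyte and 0.67 for the erythroid markers.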

How the data were processed

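The libraries were strand-marked (dUTP) and sequenced from one end for 50 bases, as the labels' protocols state. CASAVA, TopHat and the build mm9 are named in the submitters' processing notes, without versions. No source used here gives the annotation, the counting tool or its strand setting. The authors deposited 1 DEGseq table with 2 columns of whole read counts pooled by genotype, per the file headers. The first was taken as the knockout pool from the order in which the title of the table names the genotypes, and the level of Kdm6a was checked against it. The p-values and q-values are the authors' deposited DEGseq results, and only the Benjamini-Hochberg q was used. The log2 fold changes and the score per gene in the deposited table are the authors' and were not used further. Of per-sample columns there were 0, so no test across samples was run.

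CPM used the column totals, and log2 ratios a pseudocount of 0.5. Intervals are exact at the 95% level, cover counting error only and treat reads as independent molecules. A count of 0 would allow 3 counts, 0.0282 CPM (knockout) and 0.0278 CPM (wild-type). Calls and intervals were tested on simulated counts. The simulated counts held counting error only, as the intervals assume, so they could not test the effect of spread between animals. Scaling alternatives used edgeR 4.0.16 (TMM and upper quartile) and DESeq2 1.42.0 (median of ratios) in R 4.3.3, for factors only; the remaining work used Python 3.11.15 with scipy 1.17.1. Windows of 50 bases from coding transcripts were compared, on both strands and by exact match, with all GENCODE M21 transcripts. These transcripts stood in place of the genome that the plan named. Copies outside annotated transcripts were not seen, so the share found in no other gene can be too high. It can also be too low, since genes that overlap on the opposite strand count as sharing. Pfkp shared 699 windows with Pitrm1 and Pdha1 shared 461 with Map3k15. The restriction to coding transcripts was made after values were seen, since transcripts with retained introns had raised the share for Gapdh. Of 261 list genes, 256 had an identifier that GENCODE pairs with the same symbol, the 44 described among them.

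All 44 genes are named, with called members and the extremes of each further list. The genes, the lists and the tests were chosen with earlier results of these data known.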

Additional observations from a re-analysis of the deposited data

How the results depend on the processing

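The 6 calls held under upper quartile, TMM and median of ratios scaling, under depth without mitochondrial and erythroid genes (35.1% of knockout and 30.7% of wild-type counts), and with a pseudocount of 5. The median log2 ratio was 0.16 with TMM, 0.15 with median of ratios and 0.17 without mitochondrial and erythroid genes, where 27 genes lay above 0 and 16 below, against 23 and 20 by column totals; all ratios shift together under a scaling. Pdk3, Pfkfb4, Pgam1 and Pgd changed sign under these 3 scalings, with no value above 0.1 in size. With a count minimum of 1000, 1 gene was higher, since Slc16a3 and Pdk2 have fewer counts. At a 1.5-fold minimum 7 were higher (adding Hk3, Pfkl, Pdha1 and Ogdh) and 5 lower (adding Pdk1 and Mdh1). Of all genes with at least 100 counts, 18.9% were higher and 14.7% lower at that minimum. Leaving out Gapdh, Pgk1, Pgam1 and Eno1 was chosen after seeing the data. No paired analysis was possible because the table holds 1 pooled count per genotype, and for the same reason no replicate could be left out. Depth limits Eno2 and Aldoc, with 19 and 122 combined counts; Gapdh, with 181, also has shared sequence. The spread between animals is unknown for every gene.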
